A study of Mus musculus with 6 samples.

Results

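Imprinted genes are transcribed mainly from the allele inherited from 1 parent. Here 39 mouse genes known to be imprinted were followed in small-cell lung cancer (SCLC) cells with and without an active form of the transcriptional co-activator TAZ. They were taken by symbol from a list grouped by chromosomal cluster, and they make up 39 of the 23361 gene symbols in the expression table. All 39 matched 1 gene each in the GENCODE M21 annotation of GRCm38, the assembly also called mm10, where they lie in 17 loci on 9 chromosomes and 8 loci hold more than 1 of them. By textbook assignment 15 are expressed from the maternal and 21 from the paternal allele, and 3 (Gnas, Grb10 and Inpp5f) were classed as depending on the isoform or tissue. For the other genes too, the assigned side may not hold in every tissue. Maternally or paternally expressed refers below to this assignment. The values sum reads from both alleles, so the parental origin of the RNA was not measured.

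The study used SMC, its name for NCAM-high, CD44-low or CD44-negative metastasizing cells that were isolated from lung tumours by flow cytometry. The donors were Rb1L/L, Trp53L/L mice with a mixed C57Bl/6, Balb-c and S129 background. Tumours had been started by an adenovirus that expresses Cre from the CMV promoter, which is not specific to a cell type, and genotyping in the study found both Rb1 and Trp53 deleted in sorted cells of this kind, the source of both groups. SMC-TAZ4SA (3 libraries) carried a virus for TAZ-4SA, a constitutively active TAZ mutant, and SMC-Ctrl (3 libraries) carried the control virus. Infected cells were selected with puromycin, no other treatment is labelled, and the age of the mice at tumour collection is not given in the sources used here. The data statement of the study pairs this series with a different comparison (SMC and non-SMC). The sample titles were followed, and the column headings of the expression table carry the same group names. The difference from the data statement is not resolved here. Separate cultures are not stated for the libraries, and the p-values therefore reflect library-to-library spread that may be technical.

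Levels are given as FPKM, that is, fragment numbers corrected for the length of a transcript and the mapped total of a library, so levels can be compared between genes. The absolute depth is unknown, and the number of libraries limits the precision. Testing with limma was limited to genes with 1 FPKM or more in 3 or more of the 6 libraries. Fold changes are SMC-TAZ4SA over SMC-Ctrl on the log2(FPKM + 1) scale, which understates the change of low genes, and a call is a Benjamini-Hochberg adjusted p under 0.05 over the 12183 genes tested. Wwtr1, which encodes TAZ, stood at 34.5 ± 2.41 FPKM in SMC-TAZ4SA and 0.143 ± 0.0329 FPKM in SMC-Ctrl (SD, n = 3 each), in the direction of the labels. The study also reports less Taz in SMC than in non-SMC. Wwtr1 therefore cannot tell the labelled comparison from the one in the data statement. The groups differed across most of the transcriptome. The correlation of log2 values over the tested genes was 0.990 to 0.997 within groups and 0.654 to 0.664 between them, and SMC-TAZ4SA replicate 1 stood slightly apart from the other libraries of its group. Summed FPKM ran from 324938 to 361800 in SMC-TAZ4SA and from 284422 to 297034 in SMC-Ctrl. Of 6 neuroendocrine markers 5 were lower in SMC-TAZ4SA, among them Chga, which encodes chromogranin A (0.328 FPKM in SMC-TAZ4SA, 94.2 FPKM in SMC-Ctrl). Ncam1, a marker of the sort, was instead higher (78.5 FPKM in SMC-TAZ4SA, 21.4 FPKM in SMC-Ctrl). The study reports the other direction for NCAM protein, which was lower on a western blot after TAZ-4SA expression. Of 6 fibroblast markers Dcn, Lum, Fap and Pdgfra stayed under 1 FPKM in every library while both collagen genes were called higher: Col1a1 stood at 276 FPKM in SMC-TAZ4SA against 0.0136 FPKM in SMC-Ctrl, and Col3a1 at 8.92 FPKM in SMC-TAZ4SA and was listed at 0 in SMC-Ctrl. The 5 leukocyte markers in the table reached at most 0.0395 FPKM, and of 4 endothelial markers Kdr alone passed the filter (2.14 FPKM in SMC-TAZ4SA, 0.468 FPKM in SMC-Ctrl). In bulk RNA, fewer cells of a type and less RNA per cell cannot be told apart.

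Imprinted genes tend to lie in clusters under a shared control element, whose DNA methylation is set differently in egg and sperm. In many clusters a long non-coding RNA such as H19, Airn or Kcnq1ot1 is made from 1 parental chromosome while the neighbouring protein-coding genes are silenced on it. Many of the proteins act in fetal growth, the placenta and the brain, and several, Igf2 among them, are expressed in tumours. DLK1 and IGF2 are also known from neuroendocrine tumours.

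Promoter sequences from RefSeq (GRCm38.p6) were read for the members. Windows of 250 bases before to 50 after a start site were found for 34 of the 39 genes, 50 windows in all, and 3 motifs were searched on both strands. GGAATG, bound by the TEAD factors through which TAZ acts, was present in 18.0% of these windows and in 14.7% of all 32851 windows of this length. TGCCGC, the core bound by the imprint-protecting factor ZFP57 when methylated, was present in 24.0% of the members' windows and 11.6% of all windows. TGACTCA, bound by AP-1, stood in 1 member's window, that of Magel2 (2.0% of the members' windows and 5.2% of all). The median window held 15 CpG for the members and 7 overall. A match is a description of letters and says nothing of binding. The 3 stretches that follow lie at Peg3, Mest and Igf2, which were lower in SMC-TAZ4SA, and capitals mark the motifs. The first is the stretch between the head-to-head start sites of Peg3 and Usp29 (chr7:6730432-6730577, + strand), with GGAATG read on the other strand. The second lies upstream of the start site of Mest (chr6:30737800-30738049, + strand), with TGCCGC on the other strand in 2 places. The third lies upstream of an internal start site of Igf2 (chr7:142661322-142661521, - strand), ends 50 bases before it, and holds GGAATG on the other strand in 2 places.
Peg3-Usp29: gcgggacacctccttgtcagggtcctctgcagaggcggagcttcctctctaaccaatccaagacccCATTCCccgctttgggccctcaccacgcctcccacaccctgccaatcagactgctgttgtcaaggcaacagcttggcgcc
Mest: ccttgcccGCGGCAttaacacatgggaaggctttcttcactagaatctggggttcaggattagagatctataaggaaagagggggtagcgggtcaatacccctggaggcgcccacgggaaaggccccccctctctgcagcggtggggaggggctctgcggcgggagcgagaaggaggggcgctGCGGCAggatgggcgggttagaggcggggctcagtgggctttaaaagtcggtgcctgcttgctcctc
Igf2: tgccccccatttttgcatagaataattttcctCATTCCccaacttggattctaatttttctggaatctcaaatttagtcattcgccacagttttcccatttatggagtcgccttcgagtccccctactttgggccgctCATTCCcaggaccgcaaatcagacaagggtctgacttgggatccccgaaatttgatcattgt

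GGAATG was found in windows of 7 members: Igf2, Mkrn3, Peg3, Rian, Snrpn, Usp29 and Zim1. Of the 4 of these that were tested, Igf2, Mkrn3 and Peg3 were lower in SMC-TAZ4SA and Snrpn was higher. The windows of Peg3 and Usp29 hold the same site, and windows of Mest overlap. The members' window shares above thus count some sites more than once. TGCCGC was found in windows of 11 members: Copg2, Grb10, Igf2, Meg3, Mest, Nap1l5, Nnat, Plagl1, Snrpn, Zdbf2 and Zim1. Of the 7 of these that were tested, Grb10, Nnat, Plagl1 and Snrpn were higher and Copg2, Igf2 and Mest were lower.

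Of the 39 imprinted genes, 25 reached the filter and were tested. In SMC-TAZ4SA 12 were higher and 9 lower, and 4 did not pass. The share called, 84.0%, was near the share of all tested genes called (80.3%, with 40.6% higher and 39.7% lower), so the number of calls is no result about imprinted genes. The median log2 fold change was 0.16 over the 25 and 0.02 over all genes tested; it was -0.12 with a filter of 5 FPKM and -0.0049 with no filter, so its sign is not settled. Of the 25, 15 changed by at least 1 on the log2 scale with a call, against 32.2% of all tested genes, and the values of the groups did not overlap for 22, against 82.4% of all. The filter itself shaped these counts. H19, Asb4, Plagl1, Snrpn and Phlda2 passed it through SMC-TAZ4SA alone and Mest and Mkrn3 through SMC-Ctrl alone, so these 7 had to differ. Among the 18 genes at 1 FPKM or more in all 6 libraries, 7 were higher, 7 lower and 4 did not pass, and 8 were called with a change of at least 1 on the log2 scale. The share called was 77.8%. No matching share was computed over all genes at that level, so these counts are no result about imprinted genes. The 14 imprinted genes that were not tested stayed under 1 FPKM in every library, with 0.983 FPKM for Usp29 in SMC-Ctrl replicate 1 as their highest value.

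**Figure D1:**
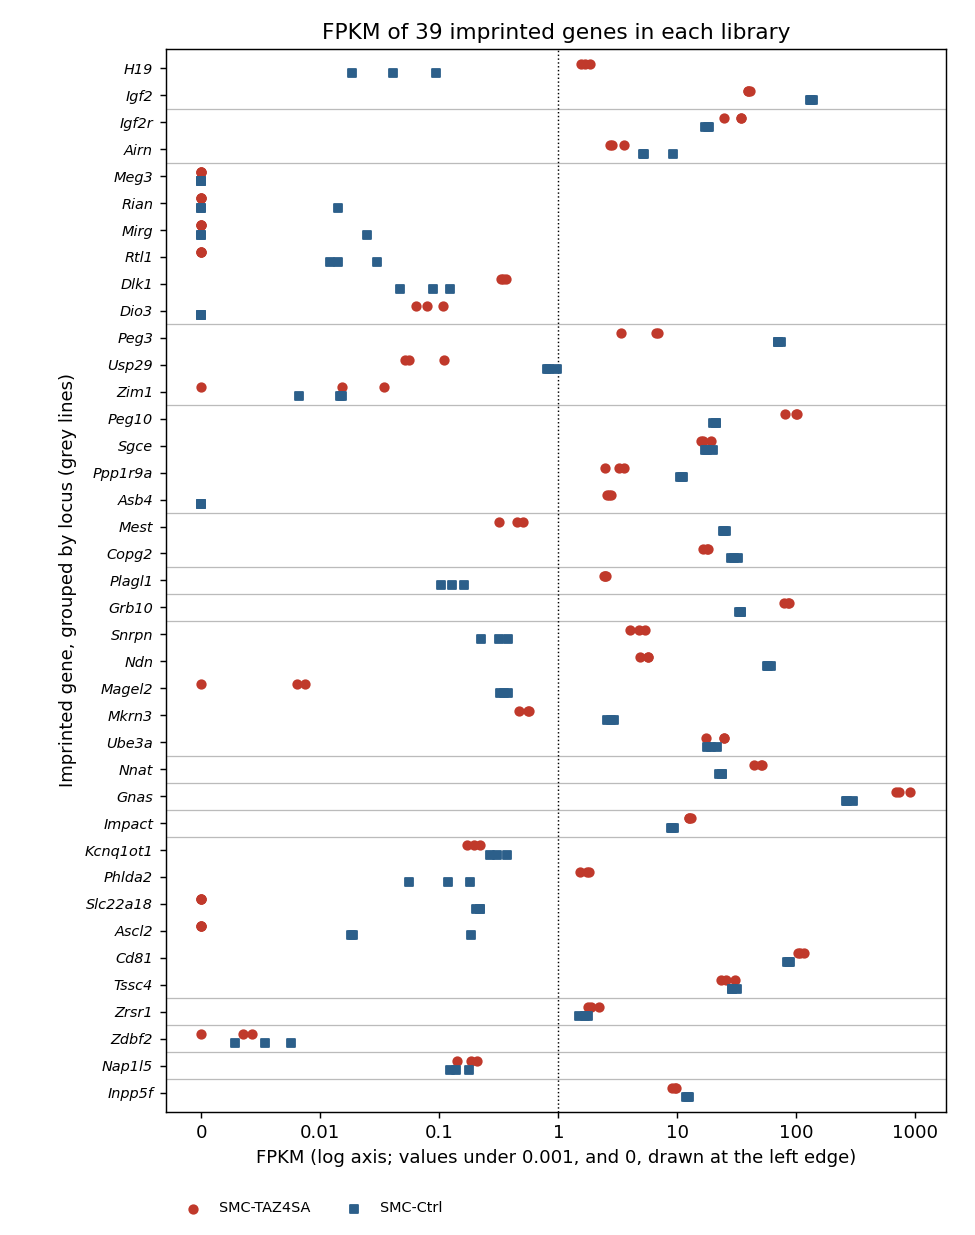
FPKM (log axis) of the 39 imprinted genes in each of the 6 libraries, grouped by locus, with SMC-TAZ4SA as red circles, SMC-Ctrl as blue squares and a dotted line at the filter of 1 FPKM. Gnas was the most abundant (688 to 907 FPKM in SMC-TAZ4SA, 264 to 299 FPKM in SMC-Ctrl), and 14 genes lie left of the line in all libraries.

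The summed FPKM of the 39 genes was 1429, 1282 and 1239 in SMC-TAZ4SA and 890, 909 and 875 in SMC-Ctrl. Gnas supplied 55.5 to 63.5% of that sum in SMC-TAZ4SA and 30.1 to 32.9% in SMC-Ctrl, while Igf2 supplied 2.76 to 3.27% in SMC-TAZ4SA and 14.5 to 15.6% in SMC-Ctrl.

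The H19-Igf2 locus on chromosome 7 joins the fetal growth factor Igf2 (142650766-142666816, - strand), expressed from the paternal allele, to the maternally expressed non-coding RNA H19 (142575529-142578143, - strand). Igf2 stood at 39.5, 39 and 40.5 FPKM in SMC-TAZ4SA, against 139, 132 and 131 FPKM in SMC-Ctrl. Every SMC-TAZ4SA library was lower than every SMC-Ctrl library, with little spread within either group. The means were 39.7 ± 0.792 FPKM in SMC-TAZ4SA and 134 ± 4.37 FPKM in SMC-Ctrl (SD, n = 3 each), a log2 fold change of -1.73 (SE 0.0591, limma adjusted p = 3.64e-08). H19 stood at 1.85, 1.56 and 1.68 FPKM in SMC-TAZ4SA, against 0.0406, 0.0186 and 0.0944 FPKM in SMC-Ctrl. H19 was thus low in both groups but higher in every SMC-TAZ4SA library, 33.1-fold by the means, with a log2 fold change of 1.36 (SE 0.0582, limma adjusted p = 1.49e-07). The 2 genes of the locus moved in opposite directions. The ratio of Igf2 to H19 was 21.4, 25 and 24.2 in SMC-TAZ4SA and 3421, 7103 and 1385 in SMC-Ctrl, where H19 was so low that the ratio was imprecise.

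Both genes also host microRNAs, as does Mest, and their seeds (bases 2 to 8, in capitals) differ. They are shown because their host genes were called. The rows of the 3 microRNA genes were listed at 0 in all 6 libraries, so the table carries no value for them.
mmu-miR-675-5p, within H19: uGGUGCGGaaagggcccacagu
mmu-miR-483-3p, within Igf2: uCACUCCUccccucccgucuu
mmu-miR-335-5p, within Mest: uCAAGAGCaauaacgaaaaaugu

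Igf2r and Airn overlap on chromosome 17 on opposite strands. Igf2r (12682406-12769664, - strand) encodes the receptor that carries IGF2 to lysosomes for breakdown, and the paternal antisense RNA Airn (12741311-12860136, + strand) silences it in cis in most mouse tissues. Igf2r stood at 24.5, 34.3 and 34.6 FPKM in SMC-TAZ4SA, against 18.1, 18.4 and 17.1 FPKM in SMC-Ctrl. All SMC-TAZ4SA libraries were higher, replicate 1 least so. The log2 fold change was 0.75 (SE 0.127, limma adjusted p = 7.54e-04), and 0.91 without SMC-TAZ4SA replicate 1. Airn stood at 2.85, 2.72 and 3.56 FPKM in SMC-TAZ4SA, against 9.17, 5.25 and 5.13 FPKM in SMC-Ctrl. SMC-Ctrl replicate 1 was far above the other libraries, but the groups did not overlap. The log2 fold change of Airn was -0.86 (SE 0.193, limma adjusted p = 0.00364), and -0.62 without SMC-Ctrl replicate 1. Antisense and receptor therefore moved in opposite directions too. Their exons share 0 bases, but whether the authors' quantification used strand is not given in the sources used here, so reads from the overlap cannot be told apart. The ratio of Igf2 to its clearance receptor Igf2r was 1.61, 1.14 and 1.17 in SMC-TAZ4SA and 7.67, 7.18 and 7.64 in SMC-Ctrl.

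Grb10, Plagl1 and Phlda2, each known as a restraint on growth, were higher, whereas Ndn and Cdkn1c, described further on and also known as such, were lower. Grb10, an adaptor that restrains insulin and IGF1 receptor signalling, stood at 79.1, 86.2 and 85.3 FPKM in SMC-TAZ4SA, against 34.5, 32.7 and 34.2 FPKM in SMC-Ctrl. The groups were far apart, with a log2 fold change of 1.28 (SE 0.0619, limma adjusted p = 3.20e-07). Plagl1 (also Zac1), a zinc finger transcription factor that restrains proliferation, stood at 2.44, 2.52 and 2.46 FPKM in SMC-TAZ4SA, against 0.103, 0.128 and 0.160 FPKM in SMC-Ctrl. Plagl1 was near background in SMC-Ctrl and nearly the same in the 3 SMC-TAZ4SA libraries, with a log2 fold change of 1.62 (SE 0.0477, limma adjusted p = 1.50e-08). Phlda2, a maternally expressed gene that limits growth of the placenta, stood at 1.73, 1.80 and 1.51 FPKM in SMC-TAZ4SA, against 0.119, 0.0556 and 0.182 FPKM in SMC-Ctrl. Its groups did not overlap (log2 fold change 1.26, SE 0.0650, limma adjusted p = 4.70e-07).

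**Figure D2:**
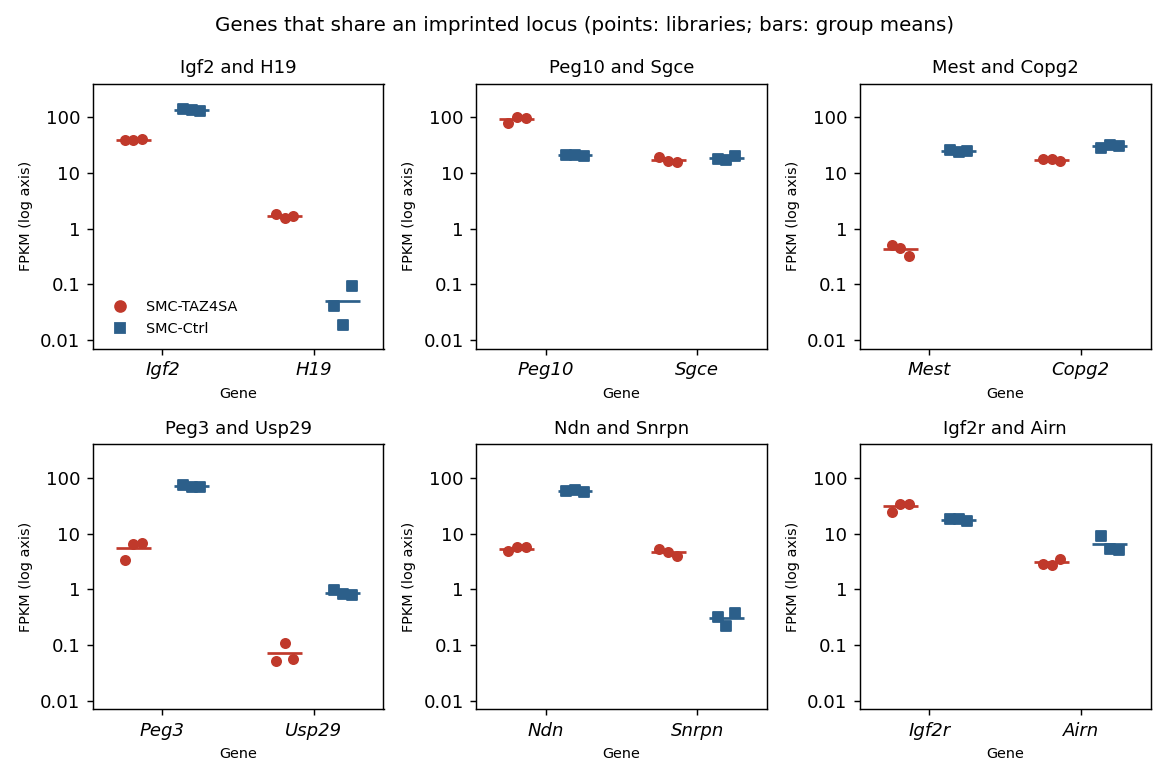
FPKM (log axis) of 6 pairs of genes from shared imprinted loci, with 1 point for each library and a bar for each group mean, SMC-TAZ4SA left of SMC-Ctrl. Igf2 fell while H19 rose, Ndn fell while Snrpn rose, Igf2r rose while Airn fell, Peg10 rose beside an overlapping Sgce, and Mest fell far more than Copg2.

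The lowest log2 fold changes, those of Mest, Peg3 and Ndn, belonged to paternally expressed genes. Mest (chr6:30723547-30748465), a mesoderm gene of the hydrolase fold family, stood at 0.505, 0.454 and 0.316 FPKM in SMC-TAZ4SA, against 25.8, 24.1 and 24.8 FPKM in SMC-Ctrl. It was at a moderate level in all SMC-Ctrl libraries and under 1 FPKM in all SMC-TAZ4SA libraries. The log2 fold change of -4.19 (SE 0.0709, limma adjusted p = 8.45e-10) was the lowest of the 25 tested members. Its neighbour Copg2, a subunit of the COPI vesicle coat, stood at 18.1, 17.6 and 16.4 FPKM in SMC-TAZ4SA, against 28.0, 32.3 and 29.9 FPKM in SMC-Ctrl. Copg2 was lower in every SMC-TAZ4SA library but by much less (log2 fold change -0.76, SE 0.0726, limma adjusted p = 2.37e-05). The last exons of the pair share 912 bases on opposite strands, so reads there cannot be assigned without strand. Copg2 kept most of its level where Mest was nearly lost.

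Peg3 (chr7:6703892-6730431, - strand), a large zinc finger protein, stood at 3.39, 6.57 and 6.91 FPKM in SMC-TAZ4SA, against 73.9, 70.1 and 69.5 FPKM in SMC-Ctrl. Replicate 1 was lowest in SMC-TAZ4SA, and the groups were far apart. Its log2 fold change was -3.49 (SE 0.206, limma adjusted p = 1.09e-06), and -3.22 without SMC-TAZ4SA replicate 1. Usp29, the deubiquitinase gene that starts back to back with Peg3 on the other side of the stretch printed above, stayed under the filter. It stood at 0.0518, 0.109 and 0.0558 FPKM in SMC-TAZ4SA, against 0.983, 0.832 and 0.808 FPKM in SMC-Ctrl, without overlap. The ratio of Peg3 to Usp29 was 65.5, 60.0 and 124 in SMC-TAZ4SA and 75.2, 84.3 and 86.0 in SMC-Ctrl, and these ranges overlapped. The maternally expressed Zim1 of the same cluster was at 0.0345 FPKM or less in every library.

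The cluster around Snrpn on chromosome 7, the mouse counterpart of the human Prader-Willi and Angelman region, was split. Ndn (62346569-62350262, + strand), a MAGE family protein known for restraining growth in neurons, stood at 4.86, 5.71 and 5.65 FPKM in SMC-TAZ4SA, against 57.4, 61.3 and 56.3 FPKM in SMC-Ctrl. The fall was seen in all libraries (log2 fold change -3.21, SE 0.0733, limma adjusted p = 3.54e-09). Mkrn3, a ring finger protein known for restraining the onset of puberty, stood at 0.555, 0.470 and 0.571 FPKM in SMC-TAZ4SA, against 2.55, 2.76 and 2.95 FPKM in SMC-Ctrl. It was lower throughout, with a log2 fold change of -1.29 (SE 0.0605, limma adjusted p = 2.60e-07). Magel2, another MAGE gene beside Ndn, was under the filter at 0, 0.00632 and 0.00749 FPKM in SMC-TAZ4SA, against 0.352, 0.376 and 0.325 FPKM in SMC-Ctrl. These 3 neighbours were thus all lower in SMC-TAZ4SA, Magel2 without a test in the main comparison. Snrpn (59982495-60140219, - strand), a paternally expressed spliceosome protein of the same cluster, went the other way. It stood at 5.35, 4.76 and 4.01 FPKM in SMC-TAZ4SA, against 0.315, 0.224 and 0.378 FPKM in SMC-Ctrl, with no overlap. The log2 fold change of 2.12 (SE 0.0938, limma adjusted p = 1.80e-07) was the highest of the 25 on this scale, and the ratio of the means was 15.4. That rank depends on the scale, since H19 (33.1) and Plagl1 (19) had higher ratios of the means, and with a pseudocount of 0.1 Asb4 and H19 stood above Snrpn. Snurf, which shares 216 exonic bases with Snrpn on the same strand and could take some of its reads, averaged 0.504 FPKM in SMC-TAZ4SA and 0.299 FPKM in SMC-Ctrl. The ratio of Ndn to Snrpn was 0.908, 1.20 and 1.41 in SMC-TAZ4SA and 182, 274 and 149 in SMC-Ctrl. Ube3a, the maternally expressed ubiquitin ligase of the cluster, did not pass: 17.3, 24.5 and 24.7 FPKM in SMC-TAZ4SA overlapped 21.6, 17.8 and 19.3 FPKM in SMC-Ctrl (log2 fold change 0.16, SE 0.139, limma adjusted p = 0.313). Without SMC-TAZ4SA replicate 1, the lowest library, its log2 fold change was 0.32 (limma adjusted p = 0.00558).

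The Peg10-Sgce locus on chromosome 6 held genes of each direction. Peg10 (4747306-4760517, + strand), a gene derived from a retrotransposon and needed in the placenta, stood at 79.8, 101 and 98.5 FPKM in SMC-TAZ4SA, against 21.1, 21.2 and 19.9 FPKM in SMC-Ctrl. All SMC-TAZ4SA libraries were higher, by 4.50-fold in the means (log2 fold change 2.11, SE 0.0956, limma adjusted p = 2.13e-07). Sgce, a sarcoglycan that starts beside Peg10 on the other strand and is also paternally expressed, stood at 19.2, 16.3 and 15.8 FPKM in SMC-TAZ4SA, against 17.6, 17.2 and 19.9 FPKM in SMC-Ctrl. The groups of Sgce overlapped (log2 fold change -0.09, SE 0.0902, limma adjusted p = 0.385), and without SMC-TAZ4SA replicate 1 it stood at -0.17 (limma adjusted p = 0.0484). The ratio of Peg10 to Sgce was 4.16, 6.20 and 6.25 in SMC-TAZ4SA and 1.20, 1.23 and 1 in SMC-Ctrl, so the 2 genes were near equal in SMC-Ctrl only. Ppp1r9a, neurabin, which binds actin and protein phosphatase 1 in neurons, stood at 2.45, 3.26 and 3.57 FPKM in SMC-TAZ4SA, against 11.2, 10.9 and 10.6 FPKM in SMC-Ctrl. It was lower in all libraries (log2 fold change -1.55, SE 0.105, limma adjusted p = 2.60e-06). Asb4, a SOCS box protein, stood at 2.80, 2.59 and 2.68 FPKM in SMC-TAZ4SA and 0 was listed for every SMC-Ctrl library, so no fold is given (limma adjusted p = 6.35e-09).

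**Figure D3:**
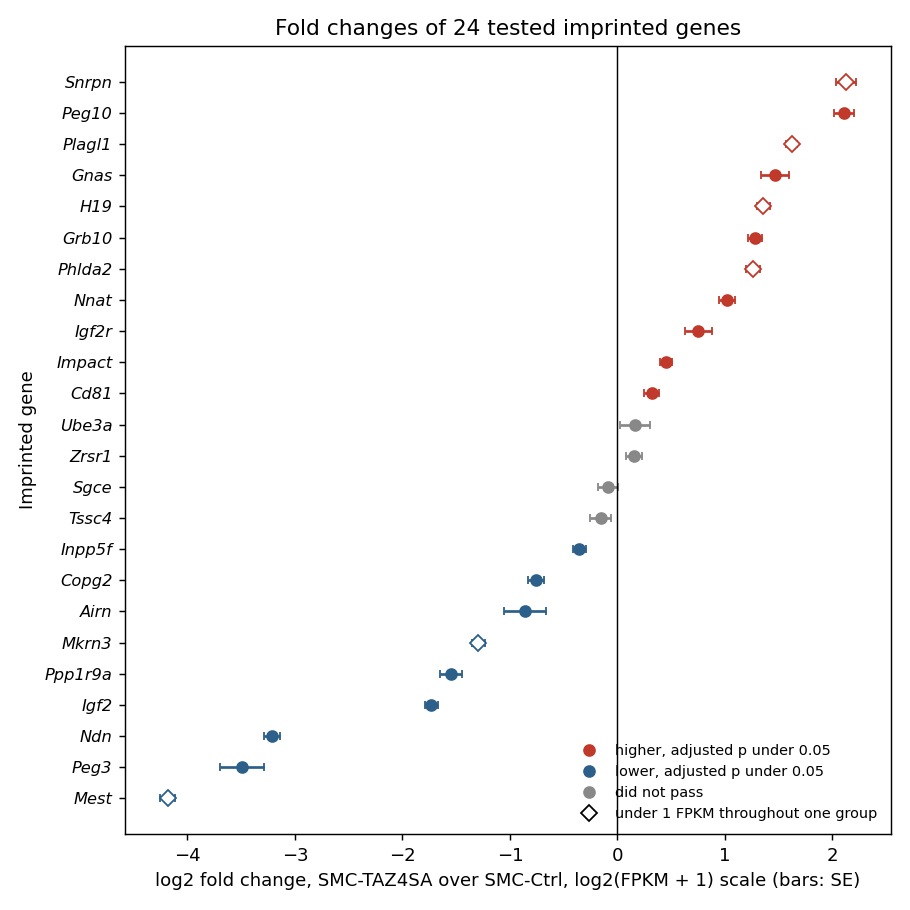
Log2 fold change, SMC-TAZ4SA over SMC-Ctrl on the log2(FPKM + 1) scale, of the tested imprinted genes other than Asb4, which was listed at 0 in SMC-Ctrl (bars: SE; open diamonds: under 1 FPKM throughout one group). The values run from -4.19 for Mest to 2.12 for Snrpn, and 4 grey genes did not pass.

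Gnas, whose main product is the stimulatory G protein alpha subunit, was the most abundant member. It stood at 907, 722 and 688 FPKM in SMC-TAZ4SA, against 268, 299 and 264 FPKM in SMC-Ctrl. Replicate 1 was the highest SMC-TAZ4SA library and the groups were well separated, with a log2 fold change of 1.47 (SE 0.127, limma adjusted p = 1.26e-05). Several transcripts of this locus have different parental sides and were not separated in the table. Nespas, an antisense RNA that shares 988 exonic bases with Gnas, was listed at 0 in SMC-TAZ4SA and averaged 0.236 FPKM in SMC-Ctrl. Nnat, neuronatin, a small membrane protein of the endoplasmic reticulum in neurons and endocrine cells, stood at 44.1, 50.4 and 51.0 FPKM in SMC-TAZ4SA, against 23.7, 22.5 and 23.8 FPKM in SMC-Ctrl. It was higher in every SMC-TAZ4SA library (log2 fold change 1.02, SE 0.0721, limma adjusted p = 3.45e-06). Blcap, within which Nnat lies on the other strand, averaged 17.1 FPKM in SMC-TAZ4SA and 8.35 FPKM in SMC-Ctrl and was also called higher.

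The Kcnq1ot1 cluster on chromosome 7 held 6 members, of which 3 were tested. Besides Phlda2, Cd81, a tetraspanin of the cell surface, rose slightly: it stood at 115, 107 and 103 FPKM in SMC-TAZ4SA, against 83.8, 86.9 and 88.6 FPKM in SMC-Ctrl. The groups did not overlap, but the log2 fold change was small at 0.32 (SE 0.0685, limma adjusted p = 0.00292), and scaling every library to the same total FPKM ended the call (0.10, limma adjusted p = 0.0779). Tssc4 did not pass, with 30.6, 25.8 and 23.5 FPKM in SMC-TAZ4SA against 28.6, 28.7 and 31.5 FPKM in SMC-Ctrl (log2 fold change -0.15, SE 0.0979, limma adjusted p = 0.179). Its groups overlapped only through SMC-TAZ4SA replicate 1, and without that library it stood at -0.25 (limma adjusted p = 0.00695). The antisense RNA Kcnq1ot1 ran from 0.171 to 0.222 FPKM in SMC-TAZ4SA and from 0.267 to 0.374 FPKM in SMC-Ctrl. Kcnq1ot1 was under the filter, and 121 of its 93092 exonic bases are shared with exons of Kcnq1 on the other strand. Kcnq1 averaged 0.00339 FPKM in SMC-TAZ4SA and 4.08 FPKM in SMC-Ctrl. Without strand, reads of the pair cannot be told apart in those bases or in any intron of Kcnq1 that Kcnq1ot1 overlaps. The transporter Slc22a18 was listed at 0 in SMC-TAZ4SA and ran from 0.205 to 0.220 FPKM in SMC-Ctrl. Ascl2, a transcription factor of the trophoblast, was listed at 0 in SMC-TAZ4SA and reached 0.184 FPKM at most in SMC-Ctrl.

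None of the 6 members of the Dlk1-Dio3 cluster on chromosome 12 reached the filter. Dlk1, a Notch-related ligand found in neuroendocrine cells, stood at 0.332, 0.362 and 0.340 FPKM in SMC-TAZ4SA, against 0.0469, 0.122 and 0.0894 FPKM in SMC-Ctrl. It was low in both groups, and the groups did not overlap. Dio3, which inactivates thyroid hormone, ran from 0.0633 to 0.107 FPKM in SMC-TAZ4SA and was listed at 0 in SMC-Ctrl. The maternal non-coding RNA Meg3 was listed at 0 in all 6 libraries, and a value of 0 can be a failed estimate, since Rps12 and Rps28, which encode ribosomal proteins, were also listed at 0 in all 6. Rian and Mirg, the other maternal RNAs of the cluster, were above 0 in 1 SMC-Ctrl library each, at 0.0142 FPKM for Rian and 0.0249 FPKM for Mirg. Rtl1, derived from a retrotransposon, reached 0.0301 FPKM at most.

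The remaining loci hold 1 member each. Impact, which restrains the amino acid sensor kinase GCN2, stood at 13.1, 12.5 and 12.6 FPKM in SMC-TAZ4SA, against 9.34, 8.82 and 8.99 FPKM in SMC-Ctrl. It was higher in each library (log2 fold change 0.45, SE 0.0564, limma adjusted p = 1.26e-04), and stood at 0.25 when libraries were scaled to the same total FPKM. Inpp5f, a phosphoinositide phosphatase, stood at 8.97, 9.71 and 9.61 FPKM in SMC-TAZ4SA, against 12.4, 11.9 and 12.6 FPKM in SMC-Ctrl. It was lower in each library (log2 fold change -0.35, SE 0.0598, limma adjusted p = 7.52e-04), and stood at -0.55 under that scaling. Zrsr1, a retrogene related to a splicing factor, stood at 2.18, 1.79 and 1.87 FPKM in SMC-TAZ4SA, against 1.48, 1.68 and 1.79 FPKM in SMC-Ctrl. The groups of Zrsr1 met at 1.79 FPKM with no clear gap, and it did not pass (log2 fold change 0.15, SE 0.0730, limma adjusted p = 0.0862). Zdbf2 stayed at 0.00564 FPKM or less. Nap1l5 overlapped between groups, at 0.141 to 0.207 FPKM in SMC-TAZ4SA and 0.123 to 0.179 FPKM in SMC-Ctrl.

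By assigned parental side, the 13 tested paternally expressed genes split into 5 higher, 6 lower and 2 that did not pass. Their median log2 fold change was -0.09. The 9 tested maternally expressed genes split into 5 higher, 2 lower and 2 that did not pass, with a median of 0.32. Of the 3 genes with an isoform-dependent side, Gnas and Grb10 were higher and Inpp5f was lower. The shares called, 84.6% of the paternal and 77.8% of the maternal genes, were near the 80.3% of all tested genes, and the difference between the parental sides was not tested. The median for all genes tested was 0.02.

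**Figure D4:**
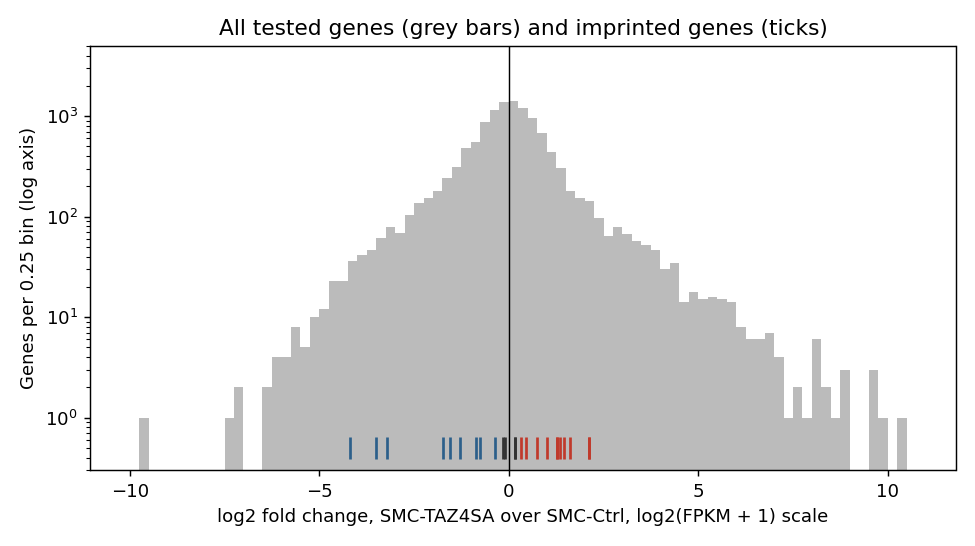
Number of tested genes (log axis) by log2 fold change, SMC-TAZ4SA over SMC-Ctrl, in grey. Ticks mark the tested imprinted genes other than Asb4, for which no fold is given (red: higher, blue: lower, black: did not pass). The imprinted genes spread over both sides and stay within the range of the 12183 genes tested.

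A further 32 imprinted genes outside the 39 were described from a second list. Of these 18 were tested, with 5 higher, 11 lower and 2 that did not pass (88.9% called, against 80.3% of all tested genes), and their median log2 fold change was -0.60. Ddc, Kcnq1, Pon2, Rasgrf1 and Th passed the filter through a single group, so they had to differ. Ddc, aromatic amino acid decarboxylase and also a neuroendocrine marker, was at 0.423 ± 0.149 FPKM in SMC-TAZ4SA and 184 ± 6.89 FPKM in SMC-Ctrl (log2 fold change -7.02, limma adjusted p = 2.30e-10). Pon2, a lactonase beside Peg10 and Ppp1r9a, was at 16.0 ± 2.06 FPKM in SMC-TAZ4SA and 0.352 ± 0.0807 FPKM in SMC-Ctrl (log2 fold change 3.65, limma adjusted p = 9.13e-09). Cdkn1c, the cell cycle inhibitor p57 of the Kcnq1ot1 cluster, was at 1.84 ± 0.142 FPKM in SMC-TAZ4SA and 29.6 ± 0.807 FPKM in SMC-Ctrl, with a log2 fold change of -3.43 (limma adjusted p = 1.29e-09). It thus moved opposite to Phlda2 of the same cluster. Rasgrf1, a Ras activator of neurons, was at 0.214 ± 0.111 FPKM in SMC-TAZ4SA and 8.25 ± 0.579 FPKM in SMC-Ctrl (log2 fold change -2.93, limma adjusted p = 1.14e-08). Commd1, within which Zrsr1 lies with 412 exonic bases shared, was at 55.7 ± 9.92 FPKM in SMC-TAZ4SA and 54.0 ± 6.12 FPKM in SMC-Ctrl and did not pass, and neither did the adaptor Gab1 (13.7 ± 1.07 FPKM in SMC-TAZ4SA, 15.1 ± 1.14 FPKM in SMC-Ctrl).

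Regulators that set or keep imprints were read from a list of 22, of which 19 were tested, and 2 were higher, 14 lower and 3 did not pass. The share called, 84.2%, was near the 80.3% of all tested genes, and the median log2 fold change was -0.42. Zfp57 and Tet1 passed the filter through a single group, so they had to differ. Zfp57, the zinc finger protein that keeps methylation at imprinted control regions in the embryo, stood at 22.8, 19.9 and 18.7 FPKM in SMC-TAZ4SA, against 0.186, 0.452 and 0.274 FPKM in SMC-Ctrl. It was near background in every SMC-Ctrl library and well expressed in every SMC-TAZ4SA library (log2 fold change 4.04, SE 0.101, limma adjusted p = 5.66e-09). The other higher gene was the Polycomb subunit Eed, named after its values were seen, by only 0.19, and it lost its call when libraries were scaled to the same total. The demethylating dioxygenase Tet1 was at 0.275 ± 0.0755 FPKM in SMC-TAZ4SA and 5.73 ± 0.328 FPKM in SMC-Ctrl (log2 fold change -2.40, limma adjusted p = 1.12e-08). Its relative Tet2 was at 1.56 ± 0.417 FPKM in SMC-TAZ4SA and 9.19 ± 0.452 FPKM in SMC-Ctrl (log2 fold change -2.01, limma adjusted p = 1.17e-06). The de novo DNA methyltransferase Dnmt3b was at 1.59 ± 0.178 FPKM in SMC-TAZ4SA and 11.7 ± 0.365 FPKM in SMC-Ctrl (log2 fold change -2.29, limma adjusted p = 1.86e-08). Writers and erasers of DNA methylation were thus both lower. Dnmt1, the maintenance methyltransferase, named after its values were seen, was at 76.3 ± 5.13 FPKM in SMC-TAZ4SA and 162 ± 6.88 FPKM in SMC-Ctrl (log2 fold change -1.08, limma adjusted p = 3.29e-06). Its partner Uhrf1 (41.6 ± 1.83 FPKM in SMC-TAZ4SA, 44.3 ± 1.84 FPKM in SMC-Ctrl), the ZFP57 partner Trim28 (212 ± 19.5 FPKM in SMC-TAZ4SA, 191 ± 16.4 FPKM in SMC-Ctrl) and Arid4b (13.1 ± 1.85 FPKM in SMC-TAZ4SA, 15.1 ± 1.15 FPKM in SMC-Ctrl) did not pass. DNA methylation was not measured.

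**Figure D5:**
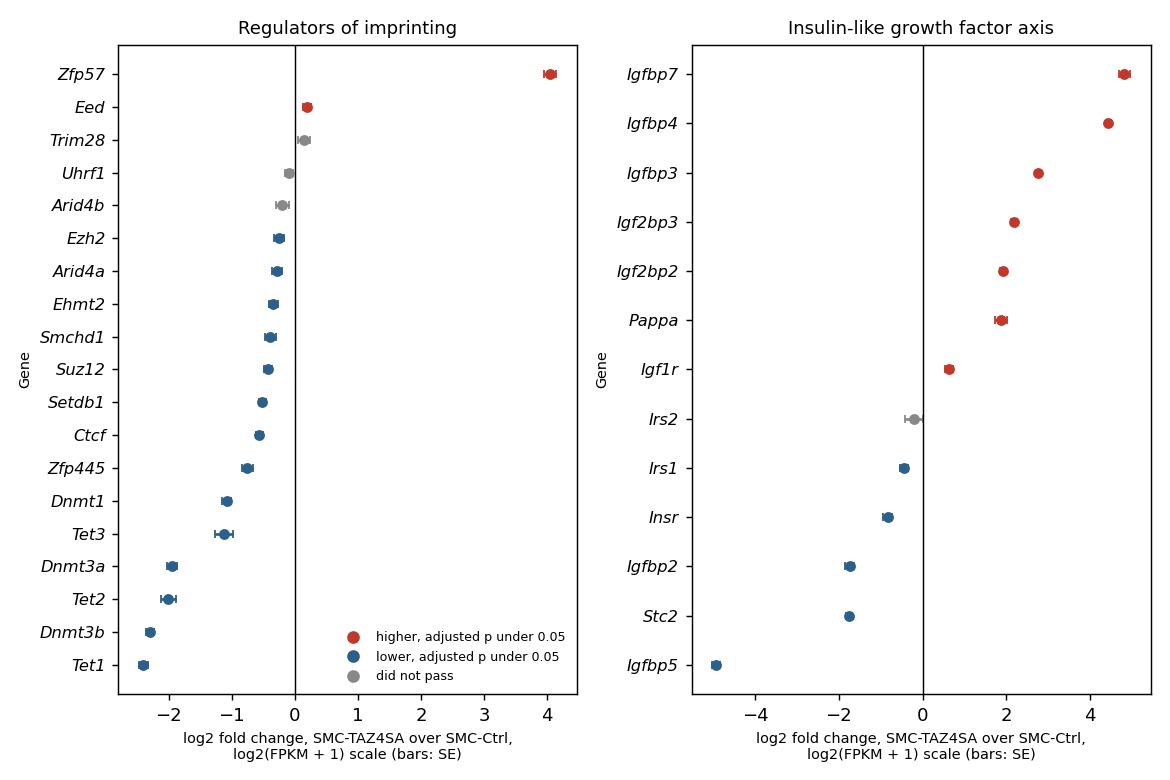
Log2 fold change, SMC-TAZ4SA over SMC-Ctrl on the log2(FPKM + 1) scale, of the 19 tested regulators of imprinting (left) and of the tested genes of the insulin-like growth factor axis other than Igf2bp1, which was listed at 0 in SMC-Ctrl (right; bars: SE). Zfp57 stood at 4.04 against falls of most other regulators, and the binding proteins of the axis run from -4.93 for Igfbp5 to 4.82 for Igfbp7.

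The insulin-like growth factor axis, through which Igf2, Igf2r and Grb10 act, was read from a list of 21 other genes. Of the 14 tested, 8 were higher, 5 were lower and Irs2 did not pass (92.9% called, against 80.3% of all tested genes). The median log2 fold change was 1.25. Igfbp3, Igfbp4, Igf2bp1, Igf2bp3 and Pappa passed the filter through SMC-TAZ4SA alone, so they had to be higher. The share called and the median are therefore no result about this axis. The secreted binding proteins, which hold the growth factors outside the cell, moved both ways. Igfbp5 was at 7.60 ± 0.940 FPKM in SMC-TAZ4SA and 260 ± 12.1 FPKM in SMC-Ctrl (log2 fold change -4.93, limma adjusted p = 1.18e-09). Igfbp7 was at 48.5 ± 5.29 FPKM in SMC-TAZ4SA and 0.759 ± 0.258 FPKM in SMC-Ctrl (log2 fold change 4.82, limma adjusted p = 6.61e-09). Igfbp4 was at 20.7 ± 0.331 FPKM in SMC-TAZ4SA and was listed at 0 in 2 of the 3 SMC-Ctrl libraries (limma adjusted p = 2.30e-10). Igfbp3 was at 10.0 ± 0.557 FPKM in SMC-TAZ4SA and 0.624 ± 0.0308 FPKM in SMC-Ctrl (log2 fold change 2.76, limma adjusted p = 3.02e-09). The adaptor Irs2 did not pass (16.0 ± 5.04 FPKM in SMC-TAZ4SA, 18.0 ± 2.01 FPKM in SMC-Ctrl). Igf1, the other ligand, named after its values were seen, was untested and reached 0.852, 1.29 and 0.890 FPKM in SMC-TAZ4SA against at most 0.0322 FPKM in SMC-Ctrl.

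Genes beside the imprinted loci moved as well, and those named here were chosen after their values were seen. Within 250 kb of a member, 51 genes that are neither members nor on the second list were tested, and 28 were higher, 19 lower and 4 did not pass (92.2% called, against 80.3% of all tested genes), with a median log2 fold change of 0.30. Some of them passed the filter through a single group and had to differ, so this share is no result about the neighbours. All 3 neighbours of H19 and Igf2 were higher, as H19 was and Igf2 was not. They include the lysosomal protease Ctsd (157 ± 16.6 FPKM in SMC-TAZ4SA, 49.8 ± 3.28 FPKM in SMC-Ctrl) and the leukocyte and actin-binding protein Lsp1 (17.7 ± 2.88 FPKM in SMC-TAZ4SA, 0.00580 FPKM on average in SMC-Ctrl). Lsp1 and Tnni2 (means 3.78 FPKM in SMC-TAZ4SA, 0.0228 FPKM in SMC-Ctrl) passed the filter through SMC-TAZ4SA alone. Like H19, they therefore had to be higher. Th, which is on the second list and so was not counted as a neighbour, was lower. It was listed at 0 in SMC-TAZ4SA and averaged 2.29 FPKM in SMC-Ctrl. All 4 neighbours of Peg3 and Usp29, the zinc finger genes Zfp954, Zfp773, Zfp418 and Zfp772, were lower, with log2 fold changes from -1.18 to -0.61, smaller than that of Peg3. All 4 neighbours of Nnat were higher, Src among them (28.6 ± 1.28 FPKM in SMC-TAZ4SA, 6.12 ± 0.693 FPKM in SMC-Ctrl), as were all 4 of Plagl1. All 3 neighbours of the Kcnq1ot1 cluster were higher too, Tnfrsf22 and Tnfrsf23 having passed the filter through SMC-TAZ4SA alone. Several other loci were split or opposed. Beside Igf2r and Airn, 2 neighbours were higher and 4 lower, and beside Gnas, 2 were higher and 2 lower. For Mest and Copg2, 1 was higher and 1 lower, and both neighbours of Grb10 were lower. Beside Peg10 and Sgce, the collagen gene Col1a2 was at 19.6 ± 0.836 FPKM and the kinase gene Pdk4 at 3.72 ± 0.355 FPKM in SMC-TAZ4SA, and both were listed at 0 in SMC-Ctrl. Col1a2 is a collagen gene like Col1a1 and Col3a1, the fibroblast markers that were higher, and Ddc with the neuroendocrine markers that fell. The part of such cell state or cell type differences in the values of the imprinted genes was not tested.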

How the data were processed

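RNA-seq libraries of SMC-TAZ4SA and SMC-Ctrl (3 each, grouped by sample title) were analysed. TRIzol-extracted total RNA had been sequenced in read pairs and mapped to mm10, with STAR 2.6 named in the processing notes of the submitters. FPKM, 1 column per library, is what the authors deposited; its quantification tool, annotation and strand setting were not given in the sources used here. FPKM are not counts, so limma 3.58.1 in R 4.3.3 was used here (group as the only term, mean-variance trend, 2-sided) on log2(FPKM + 1), with Benjamini-Hochberg adjustment over all tested symbols and a threshold of 0.05. The table held 23847 rows and 23361 symbols; 254 symbols on several rows (740 rows, none of the imprinted genes) were summed. Low values gave a relative depth of 0.712 to 0.959 in SMC-TAZ4SA and 0.966 to 1.09 in SMC-Ctrl, with SMC-Ctrl replicate 1 set to 1. Positions came from GENCODE M21 and sequences from RefSeq. The fit was tested on simulated data. All 39 imprinted genes were accounted for, and from each other list up to 4 called genes with the largest log2 fold change in size, and those at 10 FPKM or more that did not pass, were named. 1 marker of the lists is not reported here. The members and lists were chosen with earlier results of these data known. Other pseudocounts, filters, scalings, a replicate block and leaving out each library were tried.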

Additional observations from a re-analysis of the deposited data

How the results depend on the processing

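Among the 25 tested imprinted genes, 21 kept their direction and call in every alternative that could test them, and the exceptions were Sgce, Ube3a, Cd81 and Tssc4. Requiring 5 FPKM in at least 3 libraries called 4018 of 9584 genes higher and 3644 lower. Of the imprinted genes it tested 18 and left 7 called higher, against 12, and 8 lower, against 9. Their median log2 fold change of 0.16 depended on the settings: it was 0.23 with a pseudocount of 0.1, -0.0049 with no filter, -0.12 with the filter of 5 FPKM, 0.012 with the same total FPKM in each library, 0.055 with the same upper quartile and 0.0070 with the same total without the 20 most abundant genes, and between 0.16 and 0.27 when 1 library was left out, highest without SMC-TAZ4SA replicate 1. The same total moved the median of all tested genes to -0.18, against 0.02 as deposited (-0.12 with the upper quartile, -0.19 without the 20 most abundant genes), and the share of higher calls to 40.4%, against 50.6%, with 39.9% without the 20 most abundant genes. Under the same total Ube3a stood at -0.047 (limma adjusted p = 0.806), and at -0.055 (limma adjusted p = 0.771) without the 20 most abundant genes, Sgce at -0.30 (limma adjusted p = 0.00570) and Tssc4 at -0.37 (limma adjusted p = 0.00183). The cause was not tested. A pseudocount of 0.1 moved low genes most, to 3.60 for H19, 3.58 for Snrpn, 3.49 for Plagl1, 3.06 for Phlda2 and -2.18 for Mkrn3. With no filter, all but Meg3 (38 genes) were tested, and 14 were higher and 13 lower. Over all genes that setting called 5908 of 18115 higher and 6001 lower. Usp29, Magel2, Slc22a18 and Kcnq1ot1 were then lower and Dlk1 and Dio3 higher. With the replicate number as a block, 12 imprinted genes were higher and 9 lower, the same calls in 25 of 25 genes. Deviations of same-numbered libraries from their group means correlated at -0.24, -0.05 and -0.27, and those of differently numbered libraries at -0.25 to 0.34. Deviations within so small a group constrain each other, so these values cannot decide whether the numbers pair the libraries. The absolute depth is unknown, so the precision of the 14 genes under 1 FPKM could not be stated.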
